A study of Homo sapiens with 6 samples.

Results

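The response of HCT116 cells to knockdown of TEAD4 was read from 3 of the 6 RNA sequencing libraries of the series. HCT116 is a human colorectal carcinoma line. The 2 knockdown libraries came from HCT116 cells carrying a short hairpin RNA against TEAD4 (HCT116_shTEAD4), and the 1 control library from HCT116 cells carrying pLKO, a lentiviral hairpin vector. Cells were grown in DMEM with serum, and no further agent was given. The labels used here give neither the hairpin sequences nor the time after infection, and do not state whether the pair of knockdown libraries stems from 1 hairpin or several, or from 1 culture or several. The p-values then measure only the spread between these libraries, which may be technical. The knockdown libraries are called 1 and 2, as in the deposited columns. Of 26336 named genes, 14218 reached an average of 10 normalized counts across the 3 libraries and were tested, and the genes described are those in which both knockdown libraries lay on the same side of the control.

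TEAD4 is a TEA domain transcription factor. It binds short DNA motifs and activates transcription mainly through the coactivators YAP (gene YAP1) and TAZ (gene WWTR1), which the Hippo kinases keep out of the nucleus when they are active. CTGF (now CCN2) and CYR61 (now CCN1), secreted matricellular proteins that signal through integrins, and ANKRD1, an ankyrin repeat protein of muscle and stressed cells, are standard target genes of this pathway. In colorectal cancer, YAP, TAZ and TEAD factors are known for ties to growth, adhesion and regeneration.

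The promoters of 4 genes are shown for the TEAD core motif GGAATG, searched on both strands, so that CATTCC counts as a match. The sequences are the 250 bases before the annotated start from RefSeq on GRCh38.p14, written 5′ to 3′ on the gene's strand, with each match in capitals. CTGF (chr6:131951373-131951622, minus strand) is shown because it had the lowest adjusted p, and ANKRD1 (chr10:90921088-90921337, minus strand) as the other marker gene with an entry. FLNC (chr7:128830156-128830405, plus strand) is shown as an abundant gene that was lower in the knockdown libraries, and C1orf116 (chr1:207032757-207033006, minus strand) as a gene that was higher in them and holds as many matches as CTGF.
CTGF: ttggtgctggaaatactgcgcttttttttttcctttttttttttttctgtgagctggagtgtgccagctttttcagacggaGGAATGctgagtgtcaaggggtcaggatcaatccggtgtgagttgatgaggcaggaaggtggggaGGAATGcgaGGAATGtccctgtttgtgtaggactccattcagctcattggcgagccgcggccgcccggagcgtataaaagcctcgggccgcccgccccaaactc
ANKRD1: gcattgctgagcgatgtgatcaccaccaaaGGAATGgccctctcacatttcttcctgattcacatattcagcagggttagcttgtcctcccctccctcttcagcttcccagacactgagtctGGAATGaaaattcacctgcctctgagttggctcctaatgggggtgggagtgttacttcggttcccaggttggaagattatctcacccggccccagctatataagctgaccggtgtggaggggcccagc
FLNC: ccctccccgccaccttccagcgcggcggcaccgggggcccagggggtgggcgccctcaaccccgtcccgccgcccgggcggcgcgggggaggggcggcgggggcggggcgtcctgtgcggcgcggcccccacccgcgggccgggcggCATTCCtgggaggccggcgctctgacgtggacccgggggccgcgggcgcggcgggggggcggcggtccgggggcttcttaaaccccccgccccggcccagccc
C1orf116: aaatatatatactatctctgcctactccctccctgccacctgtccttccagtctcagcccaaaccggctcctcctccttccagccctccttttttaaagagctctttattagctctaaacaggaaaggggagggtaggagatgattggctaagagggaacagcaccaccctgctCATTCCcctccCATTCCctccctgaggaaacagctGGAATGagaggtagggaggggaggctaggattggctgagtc
CTGF held 3 matches, whose first bases lay 169, 104 and 95 bases before the start. ANKRD1 held 2 matches, beginning 220 and 128 bases before the start. FLNC held 1 match and C1orf116 held 3. In the window of 300 bases from 250 before to 50 after the start, GGAATG was present in 34 of 302 promoters of genes at least 2-fold lower in both knockdown libraries (11.3%), in 20 of 167 promoters of genes at least 2-fold higher (12%) and in 1206 of 11046 promoters of all genes tested (10.9%). Over all 27305 promoters of the table the share was 14%. The AP-1 motif TGANTCA, read on both strands, whose first letters TG can overlap the last letters of GGAATG, was present in 6.95% of the promoters of lower genes, 2.4% of those of higher genes, 4.71% of those of all genes tested and 7.76% of all promoters of the table. These shares are descriptions of a short window.

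The 3 libraries held 16045160 and 17089096 reads on named genes in knockdown libraries 1 and 2, and 15778571 in the control. The knockdown libraries differed from each other at many genes. They lay at least 2-fold apart at 2951 of the genes tested (20.8%), and the median size of the log2 ratio between them was 0.49. Library 1 was at least 2-fold from the control at 3204 genes (1678 higher, 1526 lower) and library 2 at 1503 genes (473 higher, 1030 lower). At 63 genes the knockdown libraries were 2-fold from the control in opposite directions. In library 1 the median log2 ratio to the control was 0.16 in the fifth of genes with the lowest GC content of their transcripts and -0.088 in the fifth with the highest, while in library 2 it was 0.068 and 0.075. Over all genes tested the median log2 ratio was 0.018 in library 1 and 0.043 in library 2. Both ratios of every gene share the control library, so that any deviation of the control enters both.

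TEAD4 itself (GRCh38 chr12:2959330-3040673, plus strand) had 68.2 and 68.6 normalized counts in knockdown libraries 1 and 2, against 355 in the control. These values rest on 75 and 64 reads in the knockdown libraries and 349 in the control. Both knockdown libraries thus held close to 19% of the control level (19.2% and 19.3%), and they were almost equal to each other. The mean log2 ratio was -2.36 ± 0.0056 (SD, n = 2). In limma's moderated test over the 3 libraries its standard error was 0.71 and its adjusted p 1.00 (unadjusted p = 0.0038), so the value stands as a check of the labels and not as a called difference. In bulk RNA, fewer cells with a transcript and less transcript per cell cannot be told apart.

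CTGF fell, and it was the only gene that passed the test. It had 228 and 227 normalized counts in the knockdown libraries, against 2736 in the control. That is 8.35% and 8.31% of the control, so the knockdown libraries were nearly equal to each other. The log2 ratio was -3.58 with a standard error of 0.50, and limma's Benjamini-Hochberg adjusted p was 0.0222. The edgeR quasi-likelihood test on the whole reads gave an adjusted p of 0.000497 and DESeq2 gave 5.83e-07. The limma call was lost with no filter on low values (adjusted p = 0.261), with a mean of at least 50 counts (adjusted p = 0.156) and in limma over all 6 libraries (adjusted p = 0.857). CTGF lies at GRCh38 chr6:131948176-131951373 on the minus strand.

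CYR61 and ANKRD1 were lower in both knockdown libraries without passing the test. CYR61 had 752 and 2063 normalized counts in the knockdown libraries, against 4296 in the control, and lies at GRCh38 chr1:85580761-85583962. Library 1 was much lower than library 2 for this gene, with log2 ratios of -2.51 and -1.06. ANKRD1 had 53.7 and 47.2 in the knockdown libraries, against 216 in the control, with log2 ratios of -1.99 and -2.17. CCDC80, a secreted matrix protein, had 32.8 and 32.2 in the knockdown libraries, against 147 in the control. The limma adjusted p of these genes was 1.00 throughout.

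**Figure D1:**
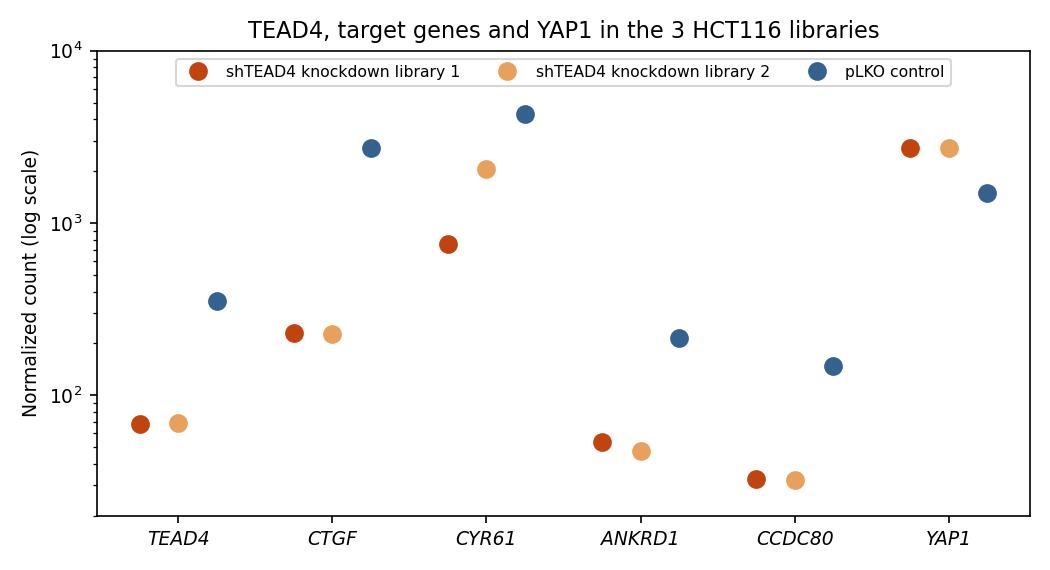
Normalized counts on a log axis (1 point per library) for TEAD4, the targets CTGF, CYR61, ANKRD1 and CCDC80, and YAP1. The knockdown libraries are left of the control. TEAD4 is at 68.2 and 68.6 in the knockdown libraries against 355 in the control, and YAP1 is higher in both. The 4 targets are the members past 2-fold lower in both of a list of YAP/TAZ-TEAD targets. Other members of that list, such as AJUBA and F3, were above the control in both.

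Across the 24 tested genes of a list of YAP/TAZ-TEAD targets members lay on both sides of the control. The list had 9 genes below the control in both knockdown libraries (37.5%) and 7 above it in both (29.2%). Over all genes tested, 4179 were below the control in both (29.4%) and 4732 above it in both (33.3%), while 5306 lay on opposite sides. Past 2-fold in both libraries, 4 of the 24 were lower (16.7%, against 3.05% of all genes tested) and 0 were higher. The 4 were CTGF, CYR61, ANKRD1 and CCDC80. CTGF, CYR61 and ANKRD1 are the marker genes named at the outset, and the list was chosen with earlier results known. The share is therefore no test of the list, and CCDC80 was the only other member past 2-fold. The list's median log2 ratio was -0.0040 in library 1 and -0.16 in library 2. AJUBA, a LIM protein that restrains the LATS kinases, had 1088 and 1018 normalized counts in the knockdown libraries, against 618 in the control. F3, the tissue factor that starts coagulation, had 826 and 781 in the knockdown libraries, against 448 in the control. AMOTL2, an angiomotin that binds YAP, had 1722 and 1571 in the knockdown libraries and 1731 in the control. Both genes AJUBA and F3 were thus higher in each knockdown library, and AMOTL2 was close to the control.

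Of 8 tested TEAD factors and cofactors, 5 were above the control in both knockdown libraries (YAP1, WWTR1, TEAD2, TEAD3 and VGLL4) and 3 below (TEAD4, TEAD1 and VGLL3). YAP1 had 2733 and 2713 normalized counts in the knockdown libraries, against 1501 in the control. WWTR1 had 3208 and 1868 in the knockdown libraries, against 1627 in the control, so that library 1 alone was far above it. TEAD2, a sister factor, had 349 and 319 in the knockdown libraries, against 213 in the control. Both knockdown libraries were clear of the control for YAP1 and TEAD2 and nearly equal to each other. TEAD3 had 735 and 543 in the knockdown libraries, against 507 in the control, while TEAD1 had 1944 and 3964 in the knockdown libraries, against 4091 in the control. VGLL3, a Vestigial-like cofactor that binds TEAD factors, had 66.4 and 23.6 in the knockdown libraries, against 108 in the control. Among 26 Hippo kinases and scaffolds, 9 were above and 10 below the control in both libraries, and FAT4, an atypical cadherin upstream of the kinases, was the 1 member past 2-fold. FAT4 had 141 and 126 normalized counts in the knockdown libraries, against 357 in the control. NF2, the merlin scaffold, had 1980 and 2745 in the knockdown libraries, against 1042 in the control.

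Past 2-fold in both knockdown libraries, 434 genes were lower (3.05% of those tested) and 230 were higher (1.62%). These counts describe sizes and carry no test. With the log2 ratios centred within classes of GC content, an alternative chosen after seeing the data, 450 were lower and 196 higher. The median limma standard error of a log2 ratio was 0.56, and the limma test with adjusted p under 0.05 called 1 gene (0.00703% of those tested), CTGF. At an unadjusted p under 0.05 limma had 446 of 14218 genes tested, 216 higher and 230 lower. That share is smaller than such a cut-off passes when no gene differs. The next adjusted p after CTGF was 0.777. DESeq2 on whole reads called 6 genes, all lower, and edgeR called CTGF alone. The authors' deposited table also holds 6 genes with adjusted p under 0.05 among 20458 genes with a read (0.0293%), all of them lower. They are CTGF, SLC4A8, PLAG1, GOLGA8IP, SLC2A3 and KIF5C. By their mean over the 3 libraries, the lower genes had a median of 44.7 normalized counts and 234 of 434 under 50. The higher genes had a median of 183 and 69 of 230 under 50. Because 2 of the 3 libraries are knockdown libraries, this mean is smaller for lower than for higher genes of like control level. Part of the gap is therefore built into the measure. At the edge of the higher group, NUTM2B had a smaller log2 ratio of 1.00 and CTBP1-AS of 0.99, and at the edge of the lower group LAMB2P1 had 1.00 and SAT1 0.9996 in size.

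**Figure D2:**
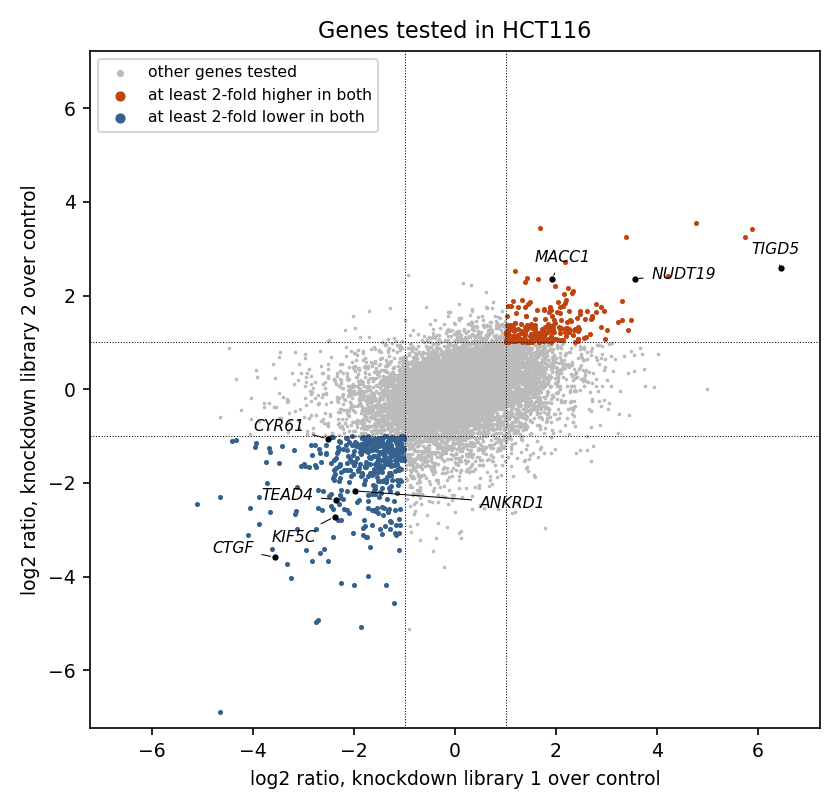
Log2 ratio to the control in knockdown library 1 (horizontal) and library 2 (vertical) for the 14218 genes tested, with dotted lines at 2-fold. The 230 genes at least 2-fold higher in both and the 434 at least 2-fold lower in both are coloured, and CTGF lies at -3.58 in both libraries; both axes share the control library.

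The genes with adjusted p under 0.05 in the authors' deposited table besides CTGF were all lower. SLC4A8, a sodium-driven bicarbonate transporter, had 50.1 and 55.8 normalized counts in the knockdown libraries, against 448 in the control. SLC2A3, the glucose transporter GLUT3, had 205 and 122 in the knockdown libraries, against 1096 in the control. KIF5C, a kinesin heavy chain of neurons, had 300.3 and 238 in the knockdown libraries, against 1577 in the control. Each was at 19.0% of the control or below in both knockdown libraries, with limma adjusted p of 0.950 for SLC4A8 and 0.777 for SLC2A3 and KIF5C, so none was called by limma. PLAG1, a zinc finger transcription factor, had 14.6 and 30.0 in the knockdown libraries, against 267 in the control. GOLGA8IP had 3.64 and 0 in the knockdown libraries, against 117 in the control, and belongs to a family of near-identical golgin copies whose reads may be split, so its value is uncertain.

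Lower genes of cytoskeleton and adhesion included some of high abundance. FLNC, the filamin that crosslinks actin in muscle and stressed cells, had 5561 and 8230 normalized counts in the knockdown libraries, against 29521 in the control. ITGA7, a laminin receptor subunit, had 299 and 275 in the knockdown libraries, against 869 in the control. The knockdown libraries were thus at 34.4% of the control or below for both genes. ITGAX, the integrin CD11c known from myeloid cells, had 152 and 105 in the knockdown libraries, against 735 in the control. MYLK, the myosin light chain kinase, had 158 and 120 in the knockdown libraries, against 370 in the control. Of 32 listed actin crosslinkers and myosins, FLNC and MYLK were the 2 past 2-fold lower and 0 were past 2-fold higher. On this list 9 were above and 10 below the control in both libraries. The scarce actinin ACTN2, given below, was also past 2-fold lower but is not on the list.

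Other abundant lower genes had varied roles. MT2A, a metal-binding metallothionein with near-identical relatives, had 3206 and 7224 normalized counts in the knockdown libraries, against 22015 in the control, and its value is uncertain for that reason. FAM46C, a poly(A) polymerase, had 69.2 and 143 in the knockdown libraries, against 611 in the control. RPS6KA2, a ribosomal S6 kinase of the ERK pathway, had 170 and 196 in the knockdown libraries, against 579 in the control. For all 3 of these genes library 1 was the lower of the knockdown libraries. HAP1, a trafficking partner of huntingtin, and EFR3B, a membrane anchor of a phosphatidylinositol kinase, were at 21.6% and 30.1%, and at 23.9% and 27.7% of the control in the knockdown libraries. TMEM59L was at 34.4% and 27.2%. HLA-DRB1, an antigen-presenting class II chain with near-identical relatives, was at 22.5% and 16.5% of the control, and KRTAP2-3, of the hair keratin-associated family, at 14.8% and 31.5%. Among scarce genes, COL15A1, a basement membrane collagen, had 4.55 and 3.22 in the knockdown libraries, against 54.9 in the control. SYT11, a vesicle protein, had 6.37 and 4.29 in the knockdown libraries, against 55.9 in the control. These scarce values rest on 3 to 7 reads in the knockdown libraries. CHAT, the enzyme that makes acetylcholine, had 4 and 0 reads in the knockdown libraries, against 29 in the control. ACTN2, the actinin of muscle, had 5 and 2 in the knockdown libraries, against 38 in the control. SCARA5, a ferritin receptor, had 3 and 4 in the knockdown libraries, against 32 in the control.

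Higher genes past 2-fold in both libraries had larger means over the 3 libraries, in part by construction. MACC1, a regulator of the receptor MET first known from metastatic colon cancer, had 1056 and 1435 normalized counts in the knockdown libraries, against 280 in the control (GRCh38 chr7:20134655-20217404). HMOX1, the heme oxygenase that breaks down heme, had 793 and 648 in the knockdown libraries, against 173 in the control. SLC16A3, the lactate exporter MCT4, had 8835 and 7035 in the knockdown libraries, against 1956 in the control. All 3 were 3.60-fold or more higher in each knockdown library, and were chosen for that size. Limma's adjusted p was 0.950 for MACC1 and 1.00 for the other two.

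Chromatin and signalling genes were also among them. SIRT1, a deacetylase of histones and other proteins, had 777 and 742 normalized counts in the knockdown libraries, against 228 in the control. TET3, a dioxygenase that oxidizes methylated cytosine, had 976 and 842 in the knockdown libraries, against 261 in the control. These 2 were the chromatin genes past 2-fold among 56 tested, with 20 above and 14 below the control in both libraries, close to the background shares. DUSP2, a phosphatase of ERK and p38, had 224 and 767 in the knockdown libraries, against 69.1 in the control. NTSR1, the receptor of neurotensin, had 3948 and 2057 in the knockdown libraries, against 642 in the control. WNT9A, a Wnt ligand, had 359 and 306 in the knockdown libraries, against 70.2 in the control. Library 2 was the higher knockdown library for DUSP2 and the lower for NTSR1 and WNT9A. HOXB6, a homeobox factor, had 309 and 280 in the knockdown libraries, against 83.4 in the control. For some higher genes library 1 was more than 2-fold above library 2, with both above the control. ZNF469, a zinc finger protein, had 490.4 and 139 in the knockdown libraries, against 25.4 in the control. NUDT19, a Nudix hydrolase, had 503 and 218 in the knockdown libraries, against 41.7 in the control. C1orf116 had 509 and 191 in the knockdown libraries, against 50.8 in the control.

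Further higher genes were alike in the knockdown libraries. CLIC3, a chloride intracellular channel family protein, had 312 and 293 normalized counts in the knockdown libraries, against 65.1 in the control. HFE, the hemochromatosis protein that regulates iron uptake, had 91.0 and 106 in the knockdown libraries, against 22.4 in the control. FIRRE, a nuclear long noncoding RNA, had 76.4 and 69.7 in the knockdown libraries, against 16.3 in the control. All 3 were at least 4-fold higher in each knockdown library. FAM83B, a signalling scaffold, had 456 and 356 in the knockdown libraries, against 103 in the control. C6orf141 had 207 and 172 in the knockdown libraries, against 40.7 in the control. None was called by limma, with adjusted p of 1.00.

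Some higher genes had 0 to 3 reads in the control. LRRC26 had 29 and 10 reads in the knockdown libraries, against 0 in the control, which is at least 8.65-fold and 3.52-fold higher when the control is set to the floor of 3 reads in that library. ZNF747 had 64 and 9 reads in the knockdown libraries, against 0 in the control. SPRY4-IT1, a noncoding RNA from within SPRY4 whose reads may in part be those of SPRY4, had 58 and 8 reads in the knockdown libraries, against 0 in the control. TIGD5, a transposase-derived protein, had 290 and 16 reads in the knockdown libraries and 2 in the control, so that the pooled ratio of 74.1 has a 95% counting interval of 20.3 to 614. TM4SF18 had 22 and 17 reads in the knockdown libraries and 1 in the control. CD96 had 19 and 24 reads in the knockdown libraries and 3 in the control. For TM4SF18 the pooled ratio was 18.9 (3.20 to 765) and for CD96 it was 6.94 (2.22 to 35.0), where the intervals cover counting error only. These genes were chosen for the size of their ratio and passed the filter through the knockdown libraries. Their intervals are therefore no test, and the pooled ratio of TIGD5 merges libraries with 290 and 16 reads.

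**Figure D3:**
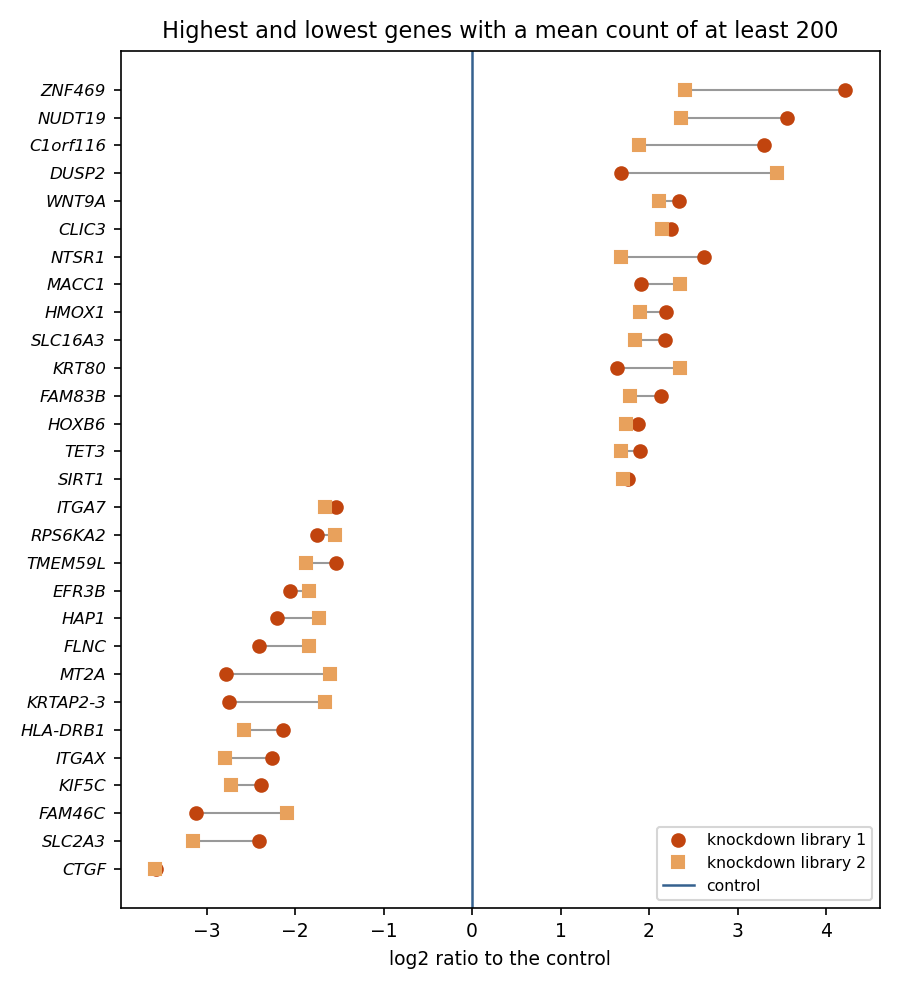
Log2 ratio to the control (blue line at 0) in knockdown library 1 (circles) and library 2 (squares) for the 15 highest and most of the 15 lowest genes averaging 200 normalized counts or more, chosen by the smaller of the 2 ratios. CTGF is lowest at -3.58 in both libraries, and CYR61 is not among the 15 because library 2 lay at -1.06.

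Gene lists were read by their counts against the background of all genes, where 33.3% were above and 29.4% below the control in both libraries, and where 1.62% were at least 2-fold higher and 3.05% at least 2-fold lower in both. Among 35 endoplasmic reticulum chaperones and folding enzymes, 26 were below the control in both (74.3%) and 5 above. HSPA5, the chaperone BiP, had 15285 and 72816 normalized counts in the knockdown libraries, against 130042 in the control, so that library 1 was by far the lower. PDIA4, a disulfide isomerase, had 4952 and 7260 in the knockdown libraries, against 15107 in the control. SEL1L, of the degradation complex, had 805 and 903 in the knockdown libraries, against 1898 in the control. ERO1B, an oxidase for disulfide bonds, had 307 and 290 in the knockdown libraries, against 668 in the control. PDIA4, SEL1L and ERO1B were the 3 past 2-fold in both libraries. The list's median log2 ratio was -0.87 in library 1 and -0.38 in library 2.

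Genes of the matrix and its receptors were mostly below the control. Of 30 matricellular, matrix and crosslinking genes, 20 were below in both (66.7%) and 2 above, with medians of -0.67 in library 1 and -0.55 in library 2. SPARC, a collagen-binding matricellular protein, had 14.6 and 30.0 normalized counts in the knockdown libraries, against 76.3 in the control. PLOD2, which hydroxylates collagen lysines, had 652 and 553 in the knockdown libraries, against 1330 in the control. TGM2, the crosslinking transglutaminase, had 868 and 588 in the knockdown libraries, against 1645 in the control. The knockdown libraries were below the control for all 3. FN1, fibronectin, had 666 and 966 in the knockdown libraries, against 1841 in the control. Of 19 integrins and laminins, 12 were below in both (63.2%) and 1, ITGB4, was above. ITGB4, the hemidesmosome integrin, had 9009 and 9453 in the knockdown libraries, against 4000.4 in the control, while ITGB3, a receptor of vitronectin, had 23.7 and 21.4 in the knockdown libraries, against 80.3 in the control. Of 31 proteases and inhibitors, 16 were below in both (51.6%) and MMP13 was the 1 past 2-fold, from 5 and 2 reads in the knockdown libraries and 32 in the control. Of 32 lysosome and autophagy genes, 20 were below in both (62.5%), among them LAMP1 with 3820 and 3219 in the knockdown libraries and 6438 in the control, and MITF, the 1 past 2-fold.

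DNA replication and G1/S genes were mostly above the control. Of 48, 34 were above in both libraries (70.8%) and 3 below. MCM5, a subunit of the replicative helicase, had 1415 and 1757 normalized counts in the knockdown libraries, against 714 in the control. GINS1, of the helicase complex, had 844 and 1019 in the knockdown libraries, against 473 in the control. UHRF1, which maintains DNA methylation at replication, had 1592 and 2359 in the knockdown libraries, against 1315 in the control. E2F2 had 292 and 342 in the knockdown libraries, against 131 in the control. GINS3 had 223 and 83.6 in the knockdown libraries, against 40.7 in the control, and these were the 2 members past 2-fold. CCND1, cyclin D1, was on the other side with 8670 and 6369 in the knockdown libraries, against 16608 in the control. The list's median log2 ratio was 0.25 in library 1 and 0.67 in library 2. G2/M and mitosis genes lay on different sides in the knockdown libraries, since 25 of 35 were below the control in library 1 and 35 of 35 above it in library 2.

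The list of growth factor receptors, ligands and regulators covered the EGF, FGF, MET, IGF, PDGF and VEGF families. It had 14 of 29 members above the control in both libraries (48.3%) and 9 below (31%). Past 2-fold, 5 were higher (17.2%, against 1.62% of all genes tested) and 2 lower (6.9%, against 3.05%). The higher members were MACC1, FGF19, BTC, EREG and PDGFA, and the lower were EGF and IGF1R. MACC1 is a regulator and neither a receptor nor a ligand, and BTC had only 12 reads in the control. EREG, the ligand epiregulin, had 5053 and 4697 normalized counts in the knockdown libraries, against 2029 in the control. FGF19, an intestinal hormone of the FGF family, had 819 and 469 in the knockdown libraries, against 168 in the control. MET, the hepatocyte growth factor receptor that MACC1 regulates, had 4579 and 4213 in the knockdown libraries, against 2256 in the control, close to 2-fold. EGFR had 2208 and 1574 in the knockdown libraries, against 1260 in the control. On the other side, IGF1R, the insulin-like growth factor receptor, had 554 and 533 in the knockdown libraries, against 1196 in the control. EGF had 15.5 and 4.29 in the knockdown libraries, against 43.7 in the control.

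The redox and heme list was split. Of 33 members, 18 were above in both libraries (54.5%) and 9 below (27.3%), with HMOX1 and ABCC2 past 2-fold higher and AKR1C2 and AKR1C3 past 2-fold lower. NQO1, a quinone reductase under NRF2, had 6786 and 4918 normalized counts in the knockdown libraries, against 2936 in the control. ABCC2, an exporter of conjugates, had 1550 and 1063 in the knockdown libraries, against 425 in the control. AKR1C3, an aldo-keto reductase, had 61.0 and 71.8 in the knockdown libraries, against 156 in the control. Among 26 transporters of bicarbonate, protons and lactate, 10 were below and 5 above in both libraries, and the 3 past 2-fold were SLC16A3 (higher), SLC4A8 and SLC9A3 (both lower). Epithelial junction and keratin genes included KRT80, KRT7 and PVRL1 past 2-fold higher and CLDN1 lower among 36. KRT80, an epithelial keratin, had 828 and 1352 in the knockdown libraries, against 265 in the control. KRT7 had 1361 and 887 in the knockdown libraries, against 366 in the control. CLDN1, a tight junction protein, was scarce, with 7 and 4 reads in the knockdown libraries and 35 in the control.

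The other signalling and stress lists had at most 2 members past 2-fold each. Of 35 Wnt pathway genes on the list, 13 were above and 9 below the control in both libraries, and 0 were past 2-fold. WNT9A, described above as past 2-fold higher, is not on this list. BCL9L, a beta-catenin coactivator, had 2728 and 3216 normalized counts in the knockdown libraries, against 1477 in the control. CCND1, also on this list, was lower, with 8670 and 6369 in the knockdown libraries, against 16608 in the control. Of 38 TGF-beta, BMP and Notch genes, 14 were above and 12 below in both, and FST, the activin antagonist follistatin, was the 1 past 2-fold, with 9 and 3 reads in the knockdown libraries and 23 in the control. Of 20 NF-kB and inflammatory genes, 7 were above and 4 below in both. CXCL8, the neutrophil chemokine interleukin-8, had 201 and 119 in the knockdown libraries, against 559 in the control, and with LCN2, an iron-binding lipocalin, it made up the 2 members past 2-fold lower. Of 35 interferon-stimulated genes, 10 were above and 11 below in both, and OASL, an antiviral OAS-like protein, was the 1 past 2-fold higher, with 780 and 644 in the knockdown libraries, against 260 in the control.

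Lists of survival, differentiation and structure had at most 3 members past 2-fold each. Of 30 p53 targets, 10 were above and 12 below the control in both libraries. CD82, a tetraspanin known as a metastasis suppressor, had 134 and 361 normalized counts in the knockdown libraries, against 956 in the control. Of 31 BCL2 family and caspase genes, 13 were above and 5 below in both. CASP8, the initiator caspase of death receptors, had 600.5 and 213 in the knockdown libraries, against 93.5 in the control, while BMF, a BH3-only protein, had 75.5 and 84.7 in the knockdown libraries, against 229 in the control. Of 15 tested histone genes, 8 were below in both and 3 were past 2-fold lower (20%, against 3.05% of all genes tested), namely HIST1H1C, HIST1H2BC and HIST2H2BE, whose near-identical copies make the values uncertain. HIST1H1C, a linker histone, had 234 and 283 in the knockdown libraries, against 769 in the control. Of 42 hypoxia, glycolysis and glucose transport genes, 6 were above and 17 below in both (40.5%), and SLC2A3 was the 1 past 2-fold. Of 13 mesenchymal genes, 8 were below in both (61.5%) and SPOCK1, a matrix proteoglycan, was the 1 past 2-fold, with 41.9 and 27.9 in the knockdown libraries, against 112 in the control. Of 34 kinesins, 11 were above and 10 below in both, with KIF5C the 1 past 2-fold. Of 14 tested intestinal differentiation genes, 4 were above and 5 below in both. MUC12, a membrane mucin, had 21.8 and 24.7 in the knockdown libraries, against 51.9 in the control. Of 34 splicing genes, 11 were above and 3 below in both, and of 26 genes of the ATF4 amino acid response, 7 were above and 10 below, with 0 past 2-fold in each list.

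In some lists the knockdown libraries lay on opposite sides of the control. All 32 ribosomal protein genes were below the control in library 1 and above it in library 2, with medians of -0.43 and 0.55. Cholesterol and fatty acid synthesis genes were below in library 1 for 30 of 32 and above in library 2 for 27. Nuclear oxidative phosphorylation genes were below in library 1 for 24 of 31 and above in library 2 for 28. The past-2-fold members were 0 in each direction for these 3 lists. Of 31 listed AP-1, EGR and ERK feedback genes, 11 were above (35.5%) and 4 below (12.9%) in both libraries, with 0 past 2-fold. The others on the list lay on opposite sides. DUSP2, described above as higher in both libraries, is not on this list. FOS, a subunit of AP-1, had log2 ratios of -2.63 in library 1 and 0.35 in library 2, and DUSP1, a phosphatase of MAP kinases, had -3.18 and 0.79. ZFP36L1, an RNA-binding protein that speeds mRNA decay, had 8151 and 10228 normalized counts in the knockdown libraries, against 4911 in the control, so that it was above in both. DDIT3, a stress factor downstream of ATF4, had 179 and 1564 normalized counts in the knockdown libraries, against 3015 in the control. DDIT3 was thus below the control in both, at 5.95% and 51.9% of it, and far lower in library 1. Under the other scalings tried, the median over members of the 2-library mean log2 ratio changed sign for kinesins, intestinal differentiation and splicing genes, where it lay near 0 at -0.068, 0.027 and 0.057.

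**Figure D4:**
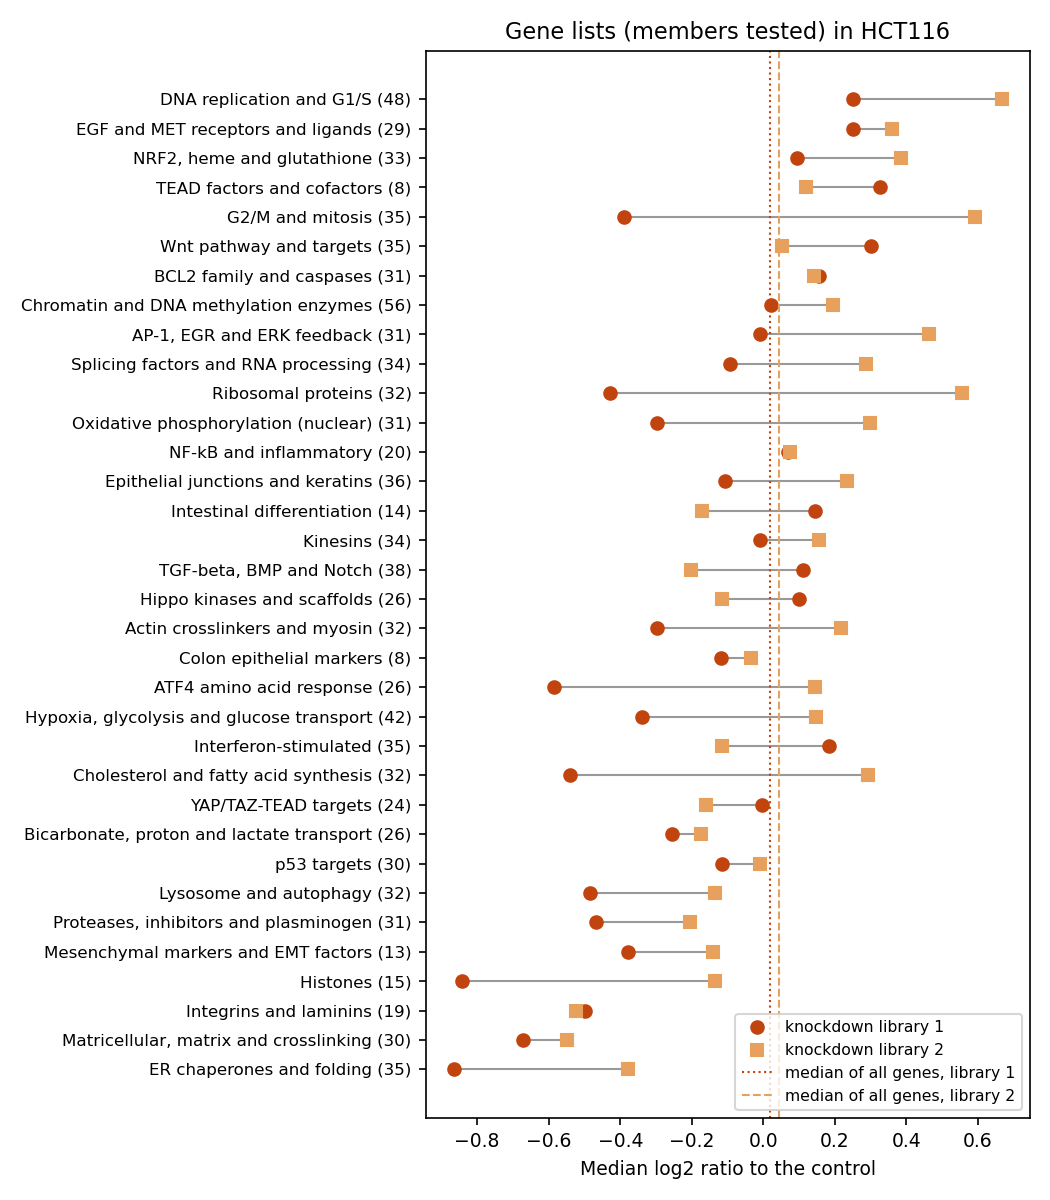
Median log2 ratio to the control of the tested members of 34 gene lists in knockdown library 1 (circles) and library 2 (squares), with vertical lines at the medians of all genes. ER chaperones lie at -0.87 and -0.38, DNA replication genes at 0.25 and 0.67, and ribosomal proteins lie at -0.43 and 0.55, apart from each other.

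Markers of the labelled cells and of other cell types were read for all 3 libraries. The colon epithelial genes EPCAM, KRT8, KRT18, KRT19 and CDH1 were abundant. CDH1 had 2449 and 2353 normalized counts in the knockdown libraries and 2784 in the control. Of the intestinal genes, CDX2 had 210 and 94.4 in the knockdown libraries, against 83.4 in the control. KRT20 had 53.7 and 47.2 in the knockdown libraries, against 41.7, and CDH17 had 12.7 and 8.58, against 13.2. VIL1 and LGALS4 were at 8.13 or below in every library. Of 11 fibroblast markers 2 passed the filter, and of 14 genes on the leukocyte list 5 passed it. The defining genes PTPRC, CD3E and COL1A2 were at 0 to 3.05 in every library. The fibroblast marker THY1 had 0 and 1.07 in the knockdown libraries, against 15.3 in the control. PDGFRB had 6.37 and 3.22 in the knockdown libraries, against 12.2 in the control. Both were lower in the knockdown libraries, but neither passed the filter. LUM, also under the filter, was above the control in both, with 2.73 and 1.07 against 0. COL1A1, COL3A1 and POSTN lay on opposite sides of the control in the knockdown libraries. On the leukocyte list, 4 genes (CD3D, MS4A1, TYROBP and HBB) had 0 reads in all 3 libraries. HBB and HBA1 on this list are hemoglobin genes of red blood cells and not leukocyte markers. Summed over the leukocyte list the level was 361 and 1152 in the knockdown libraries, against 1201 in the control, and CD68, a lysosomal protein that many cells make, was 248 and 1072 of it in the knockdown libraries and 1088 in the control. Summed over the fibroblast list the level was 545 and 1059 in the knockdown libraries, against 966 in the control, of which COL1A1 made up 452 and 982 in the knockdown libraries and 806 in the control. Of 9 endothelial markers 4 passed the filter, and the sum was 330 and 246 in the knockdown libraries, against 559 in the control. ESAM made up 227 and 138 of it in the knockdown libraries and 355 in the control. VWF and ENG lay on opposite sides of the control in the knockdown libraries. TIE1, the endothelial receptor, had 12.7 and 10.7 in the knockdown libraries, against 91.5 in the control, with 0.910 and 0 for CDH5 in the knockdown libraries and 1.02 in the control. The part of other cells in these results was not tested.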

How the data were processed

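RNA of HCT116 cells was sequenced from 2 TEAD4 knockdown libraries and 1 pLKO control; per the labels' protocols, Trizol RNA went into TruSeq libraries, a kit without strand marking. The authors deposited a signal per gene and library, the reads divided by 1 size factor per library; dividing by each library's smallest step gave whole reads for 100% of values (tolerance 1e-06). The authors' log2 fold changes and p-values stand in the same deposited table, per the file headers. The submitters' processing notes list Bowtie 0.12.2 and hg18 without saying how they were used. How reads were counted per gene is not given in the sources used here, so reads of near-identical genes may be split.

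Of 26364 features, 28 with date-like names were left out. Genes averaging 10 normalized counts or more were tested with limma 3.58.1 (R 4.3.3, eBayes with trend, log2(normalized count + 1), Benjamini-Hochberg adjusted p under 0.05). With 1 residual degree of freedom, the lone control is assumed to vary like the knockdown pair, and fold changes understate low genes. edgeR 4.0.16 and DESeq2 1.42.0 were run on the whole reads as alternatives. A gene past 2-fold had a log2 ratio of at least 1 in size, of 1 sign, in both libraries; intervals cover counting error only (95%). Scripts were tested on simulated data. Genes named are TEAD4 and its markers, the 15 highest and lowest by the smaller ratio (all, and with a mean of at least 200), up to 4 members past 2-fold per list, the authors' calls and the 5 smallest limma p; other list members were named after their values were seen. Members, the 37 lists and tests were chosen with earlier results of these data known. The reference gave names (95.6% of symbols matched), GC content (97.7% of tested genes), positions and RefSeq promoters. Results for some genes that these rules select are not reported here.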

Additional observations from a re-analysis of the deposited data

How the results depend on the processing

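The counts of genes past 2-fold in both knockdown libraries (664 in all, 230 higher and 434 lower) depended on the cut-offs. With no filter on low values they were 2334, 549 and 1785, and with a mean of at least 50 normalized counts 361, 161 and 200. At 1.5-fold they were 2017, 924 and 1093, at 3-fold 163, 40 and 123, and after subtracting 1 SD of counting error 351, 105 and 246. Fewer or more genes pass these by construction. Without knockdown library 1 or 2 the counts ranged from 1503 to 3204 in all, from 473 to 1678 higher and from 1030 to 1526 lower, so library 1 alone gave 1678 higher and library 2 alone 473. Higher genes made up 34.6% of the total, but 23.5% with no filter, 45.8% at 1.5-fold and 24.5% at 3-fold. Centring on the median gave 205 higher and 470 lower, and centring within GC classes, chosen after seeing the data, 196 and 450, with 595 of the 664 genes shared. At least 10 reads in every library, also chosen after seeing the data, left 188 and 309.

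The limma count of 1 was 0 with no filter, with a mean of at least 50 and over all 6 libraries. In these settings unadjusted p under 0.05 held for 1410 of 20458, 340 of 11839 and 743 of 14218 genes tested. The count of called genes was 6 with DESeq2 and 1 with edgeR. The mean log2 ratio of TEAD4 (-2.36) was -2.37 and -2.29 with pseudocounts of 0.5 and 5, -2.39 after centring, -2.32 within GC classes, and -2.40 with both edgeR and DESeq2. Without library 1 or 2 it ranged from -2.36 to -2.35. With 1 control and 1 residual degree of freedom, leaving out a library leaves no limma test. No paired analysis was possible because the columns carry numbers and not the letters of the labels, and the line has 1 control. Depth limits the scarce genes, where a few reads set the ratio.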

Other observations

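Limma over all 6 libraries tested whether the knockdown difference in HCT116 differed from that in SW620, the other line of the series. Of 14218 genes, 0 had an adjusted p under 0.05. That fit, with 1 control per line, did not call CTGF in HCT116 either, so the 0 cannot show that the lines responded alike. At an unadjusted p under 0.05 the test of the line difference had 233 genes, fewer than such a cut-off passes when no gene differs.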
